A study of Homo sapiens with 8 samples.

Results

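The genes described here encode respiratory complexes II, III, IV and V and cytochrome c, measured in quiescent and cycling cells sorted from aggregates of a lymphoma line. Members were the genes whose probe sets carry a single symbol beginning with UQCR, COX4 to COX8 or ATP5, or equal to SDHA to SDHD, CYC1 or CYCS, and each gene was represented by its brightest probe set. The rule found 48 genes among 19775 on the arrays, through 95 probe sets, and did not use the contrast between the groups. Of these, 42 lay above the intensity filter and were tested, 41 subunit genes and the pseudogene ATP5MC2P1. The other 6 lay under the filter: COX4I2, COX6A2, COX6B2, COX7A1, COX7B2 and the pseudogene COX6A1P1.

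RL is an established human B lymphoma line that carries the t(14,18) translocation, and both groups share that line and genotype. Cells were grown for 14 days as multicellular aggregates (MALC) and stained for RNA with the dye pyronin Y. Pyronin Y dull cells were sorted as quiescent and pyronin Y bright cells as cycling, 4 arrays each. RNA of each fraction, 30 ng a sample, was amplified and hybridised to Affymetrix U133 Plus 2.0 arrays. A single line was used. Whether the samples of a group are separate cultures is not stated in the labels, so each p-value sets a difference against a spread that may be technical, and the small number of arrays limits precision.

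Mitochondria pass electrons from nutrients to oxygen through a chain of membrane complexes. Complex II, succinate dehydrogenase, feeds electrons from succinate to ubiquinone. Complex III passes them to cytochrome c, and complex IV, cytochrome c oxidase, passes them to oxygen. Complexes III and IV pump protons, and complex V, the ATP synthase, lets protons flow back through a turning ring of c subunits to make ATP. Complexes III, IV and V also hold subunits encoded in mitochondrial DNA, which fall outside the rule. B cells that begin to divide are known to build up mitochondrial mass.

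The values are MAS5 intensities that the authors had scaled to the same trimmed mean on every array, so a difference is relative to the other transcripts and not an amount per cell. Quiescent cells were chosen for little RNA, and in such bulk samples fewer cells of a type and less RNA per cell cannot be told apart. Log2 differences are quiescent minus cycling and are given with their standard error. A gene is called where limma's p, adjusted over all 11678 genes tested, was under 0.05. B cell markers were high in both groups, with sums of 56021 to 69892 in quiescent and 57988 to 67751 in cycling arrays, and 0 of the 6 tested were called by limma or reached an unadjusted p under 0.05, while centring the arrays on their medians, described below, called 4 of the 6 lower. Summed markers of T cells, monocytes, fibroblasts, epithelium and red cells stayed at or below 503 in quiescent and 514 in cycling arrays, and of the 6 above the filter 0 were called by limma and 1 had an unadjusted p under 0.05. Of these, the 5 epithelial markers summed to 349 to 412 in quiescent and 166 to 347 in cycling arrays, without overlap, and their part in the results was not tested. All 6 cycling markers were called lower in quiescent cells, with a median difference of -2.39. The log2 ratio of 3′ to 5′ control probe sets was 2.57 ± 0.18 in quiescent and 2.02 ± 0.20 in cycling arrays for ACTB (SD, n = 4 each), with a two-sided exact permutation p of 0.0286, the smallest that 70 assignments allow. For GAPDH it was 0.11 ± 0.021 in quiescent and -0.046 ± 0.088 in cycling arrays (the same exact p; adjusted over both ratios 0.0286). The part of RNA quality in the results was not tested.

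Promoters of respiratory genes are known for binding sites of the factors NRF1, GABPA and YY1. RefSeq windows of the 250 bases before the start (GRCh38.p14) were at hand for 33 of the 41 subunit genes tested, in 39 windows. On either strand, the NRF1 letters GCATGCGC stood in 23.1% of these windows, 2.63% of all 35116 windows and 4.34% of the 13589 windows of tested genes. A second NRF1 spelling, GCGC, any 2 bases and GCGC again, stood in 23.1% of the members' windows, 7.16% of all windows and 12.0% of those of tested genes. The GABPA letters CCGGAAG stood in 30.8% of the members' windows, 8.52% of all and 14.5% of those of tested genes. The YY1 letters AANATGGC stood in 10.3% of the members' windows, 3.86% of all and 4.53% of those of tested genes. The 2 NRF1 spellings can overlap, and a match describes letters and is not a site.

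Of the 33 members with a window, 21 were called lower in quiescent cells. The count was 6 of the 8 with GCATGCGC, 6 of the 9 with the second NRF1 spelling, 8 of the 11 with the GABPA letters and 2 of the 3 with the YY1 letters, shares near that of all members with a window. The windows below show such letters in genes that fell in quiescent cells: UQCRC1 of complex III at chr3:48609647-48609896 on the minus strand, CYCS at chr7:25125261-25125510 on the minus strand, COX6A1 of complex IV at chr12:120437863-120438112 on the plus strand, and ATP5PO of complex V at chr21:33915805-33916054 on the minus strand. Each is the called gene of its complex with the largest fall that has 1 window free of other genes. No complex II gene is shown. Capitals mark the motif letters, which lie 47 bases before the start in UQCRC1, 169 in CYCS, 218, 174 and 16 in COX6A1 and 24 in ATP5PO.
UQCRC1: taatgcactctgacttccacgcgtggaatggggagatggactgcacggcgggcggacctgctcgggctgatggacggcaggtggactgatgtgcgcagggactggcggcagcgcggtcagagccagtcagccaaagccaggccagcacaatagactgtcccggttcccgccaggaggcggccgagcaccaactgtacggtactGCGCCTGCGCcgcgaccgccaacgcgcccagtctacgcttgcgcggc
CYCS: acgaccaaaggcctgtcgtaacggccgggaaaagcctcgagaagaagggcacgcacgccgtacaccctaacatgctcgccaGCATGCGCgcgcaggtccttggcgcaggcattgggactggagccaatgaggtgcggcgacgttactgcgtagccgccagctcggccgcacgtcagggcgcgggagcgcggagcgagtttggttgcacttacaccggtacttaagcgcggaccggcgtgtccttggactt
COX6A1: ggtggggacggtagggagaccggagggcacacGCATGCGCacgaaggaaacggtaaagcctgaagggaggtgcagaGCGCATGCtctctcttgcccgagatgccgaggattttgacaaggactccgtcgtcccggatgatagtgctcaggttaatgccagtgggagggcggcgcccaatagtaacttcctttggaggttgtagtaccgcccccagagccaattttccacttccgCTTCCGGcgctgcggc
ATP5PO: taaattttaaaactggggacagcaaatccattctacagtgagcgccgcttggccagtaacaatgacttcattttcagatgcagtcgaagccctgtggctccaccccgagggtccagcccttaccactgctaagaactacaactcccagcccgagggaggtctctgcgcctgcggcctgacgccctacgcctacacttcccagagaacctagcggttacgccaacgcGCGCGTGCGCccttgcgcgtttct
COX6A1 thus holds the NRF1 letters in both orientations and, next to its start, the GABPA letters CTTCCGG.

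Across complexes II to V and cytochrome c, most subunit genes were lower in quiescent than in cycling cells, and the fall was moderate. Of 41 tested, 24 were called lower, 2 were called higher and 15 were not called, against 15.4% lower and 12.2% higher among all genes. The members' median log2 difference was -0.47, against 0.081 for all genes tested. The difference was below 0 for 38 of 41. In 22 genes all quiescent arrays lay under all cycling arrays, which held for 15.4% of all genes. In 2 genes, COX7A2L and ATP5MF, all quiescent arrays lay above, as for 13.3% of all genes. The members were bright, with a median brightness percentile of 91.4 among the genes tested, and 26 of the 41 ranked above percentile 90. Over all 11678 genes, brighter genes tended to have lower differences (Spearman rho -0.29), while among the 41 members rho was -0.0037. The shares and median of all genes were not matched for brightness, and how much of the members' gap to them goes with brightness was not tested.

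**Figure D1:**
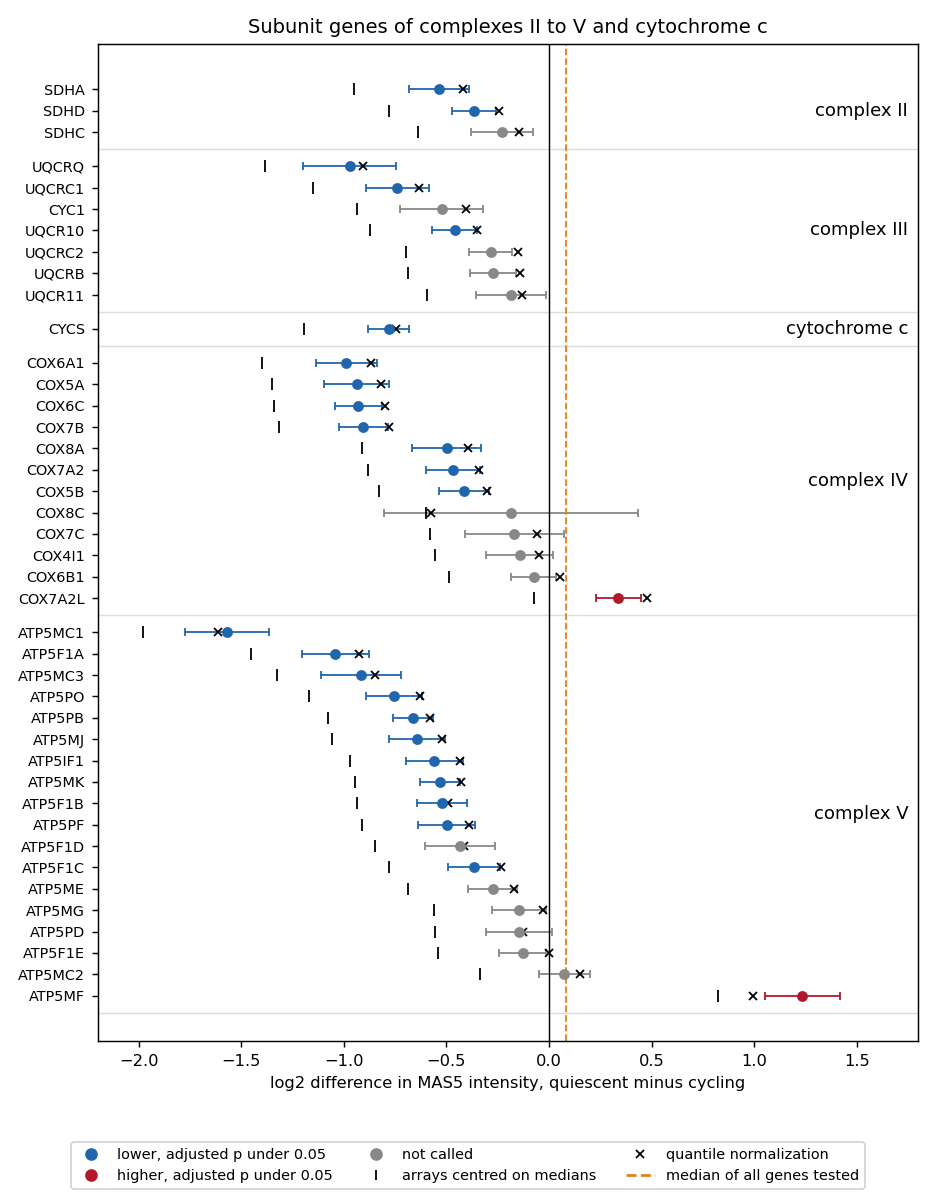
Log2 difference in MAS5 intensity, quiescent minus cycling (x axis), for the 41 subunit genes (y axis), with bars of 1 standard error; points are coloured by call, ticks and crosses give the values after centring and quantile normalization, and the dashed line is the median of all genes. Of the points, 38 lie below 0, and centring moves every gene to the left by 0.41.

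How the arrays are scaled changes these counts. Centring the arrays on their medians moves every log2 difference down by 0.41 and the median of all genes to -0.33. It gave 36 members lower and 1 higher, against 32.5% and 2.8% of all genes. Quantile normalization put the median of all genes at -0.038 and gave 19 members lower and 2 higher, against 16.4% and 10.5%. The same 19 genes were called lower in all 3 scalings, and 1, ATP5MF, was called higher in all 3. Relative to the median of all genes, the members' median was -0.55 as deposited and after centring, which moves all genes alike, and -0.36 after quantile normalization.

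The choice of probe set mattered as well. With the mean of all probe sets of a gene in place of the brightest, 14 members were lower and 3 higher, against 13.0% and 14.5% of all genes. The call was lost for 11 genes: SDHD (0.27), UQCR10 (-0.086), CYCS (-0.18), COX6A1 (-0.18), COX7B (-0.52), COX5B (-0.32), ATP5F1A (-0.23), ATP5F1C (-0.026), ATP5PB (-0.34), ATP5PO (-0.011) and ATP5IF1 (-0.24). In 5 of these the mean took in a probe set under the filter. UQCRB was then called lower (-0.42) and ATP5MC2 higher (1.04). The values that follow are those of the brightest probe set.

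**Figure D2:**
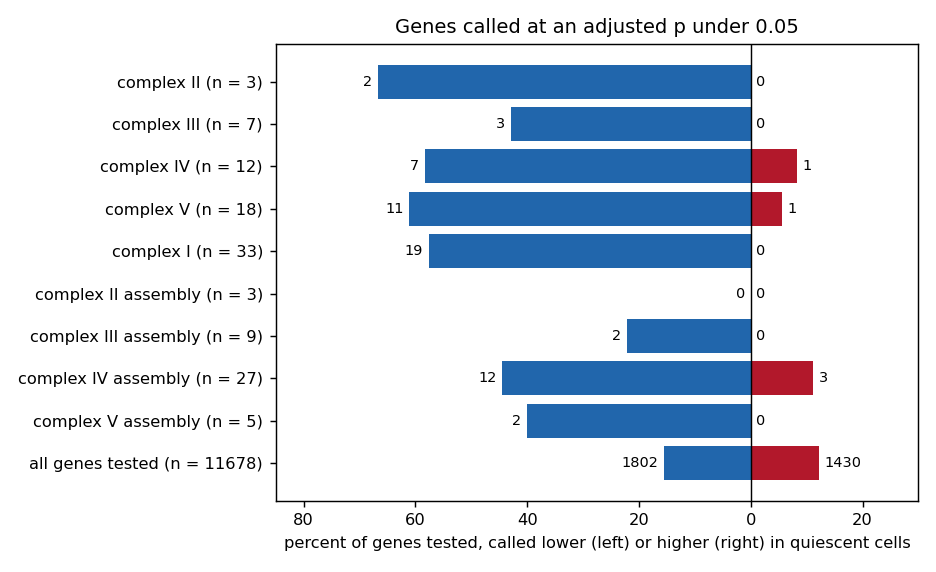
Percent of the tested genes called lower (left) or higher (right) in quiescent cells for each complex, the complex I list, the assembly factor lists and all genes, with the number called beside each bar and n in the label. The shares called lower run from 0 of 3 complex II assembly factors to 66.7% for complex II, against 15.4% of all genes.

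The complexes had similar medians. Complex II had 2 of 3 genes called lower and a median log2 difference of -0.37, complex III 3 of 7 and -0.46, complex IV 7 of 12 and -0.44, and complex V 11 of 18 and -0.51. Cytochrome c, a single gene, stood at -0.78. Relative to the median of all genes, complexes II, III, IV and V stood at -0.45, -0.54, -0.52 and -0.59, and after quantile normalization at -0.20, -0.31, -0.33 and -0.38. With a stricter intensity filter of 422, they stood at -0.34, -0.43, -0.44 and -0.49. No difference between complexes was tested, since genes of a complex are not replicates. Within each of complexes III, IV and V the genes spread more widely than the medians of the complexes did, from -1.57 to 1.23 in complex V.

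**Figure D3:**
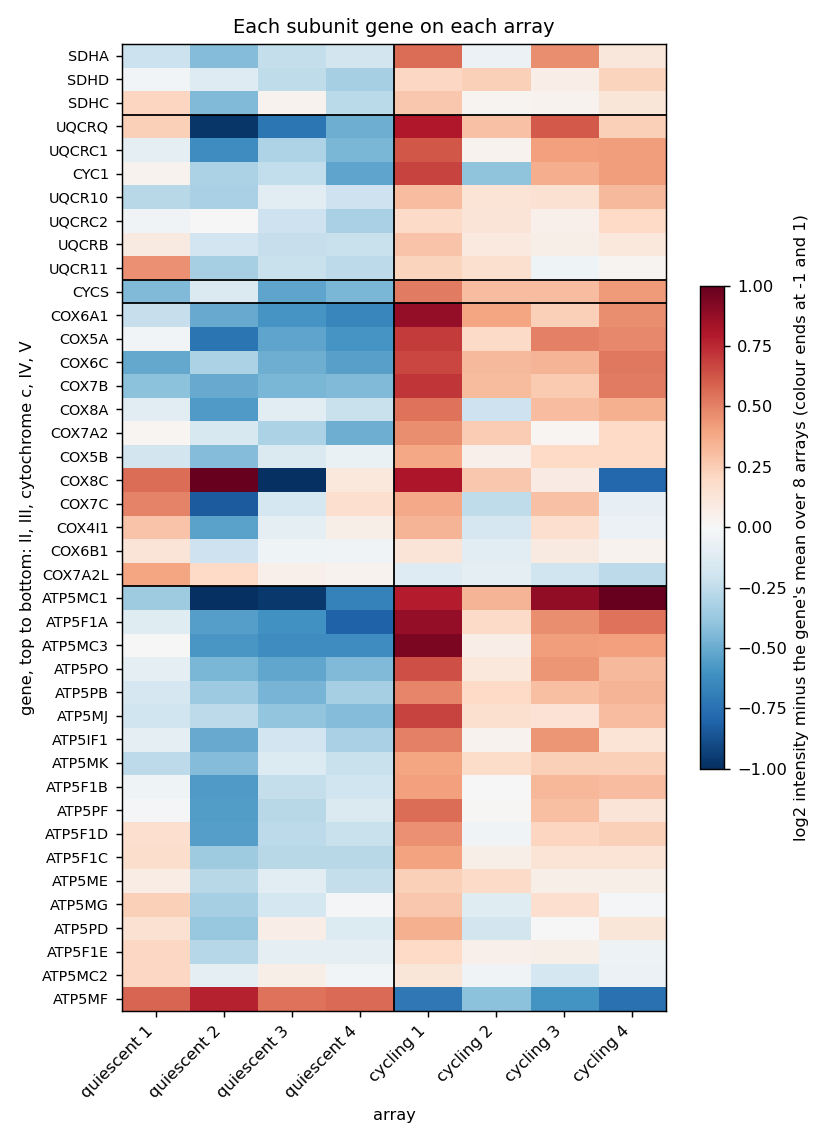
Log2 intensity of each subunit gene (rows, grouped by complex) on each array (columns, quiescent left, cycling right) minus the gene's mean over all arrays. Quiescent arrays are mostly blue (lower) and cycling arrays mostly red (higher), except COX7A2L and ATP5MF, which run the other way.

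Complex II is also an enzyme of the citric acid cycle. SDHA, the flavoprotein that oxidises succinate, had intensities of 4399.6, 3772, 4328 and 4479.6 on the quiescent arrays, against 7493, 4899.8, 7029.5 and 5518 on the cycling arrays. The groups did not overlap, and the log2 difference was -0.54 ± 0.14 (limma adjusted p = 0.0147). SDHD, a membrane anchor that holds heme and ubiquinone, had 6549, 6096, 5587 and 5297 in quiescent cells, against 7689, 7850.5, 6967 and 7754 in cycling cells. Again the groups did not overlap, with a difference of -0.37 ± 0.11 (limma adjusted p = 0.0236). SDHC, the other anchor, had 3831, 2424, 3377 and 2733 in quiescent cells, against 3963, 3359.7, 3376 and 3584 in cycling cells. These ranges overlapped, and the difference of -0.23 ± 0.15 was not called (limma adjusted p = 0.282). SDHA and SDHC were represented by probe sets of the type marked x_at, which can also bind other transcripts. The calls were close to the threshold. SDHA was not called without cycling sample 3 (-0.47), and SDHD lost its call on leaving out quiescent sample 3 (-0.34), quiescent sample 4 (-0.32) or cycling sample 4 (-0.35), so that 1 of the 3 genes was then called.

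In complex III, UQCRQ, a small subunit near the ubiquinone site, fell the most. It had 3072, 1333, 1585 and 1866 in quiescent cells, against 4544, 3191, 4002 and 3077 in cycling cells, a difference of -0.97 ± 0.23 (limma adjusted p = 0.00666). Quiescent sample 1 lay just under the lowest cycling sample and the others far under it. UQCRC1, a core protein on the matrix side, had 3791, 2616, 3250.2 and 2927 in quiescent cells, against 6179, 4126, 5358 and 5368 in cycling cells. It fell without overlap, by 0.74 ± 0.15 on the log2 scale (limma adjusted p = 0.00327). UQCR10, a small accessory subunit, had 3790.3, 3673, 4269 and 3997 in quiescent cells, against 5692, 5073, 5120.2 and 5757 in cycling cells, also without overlap (-0.46 ± 0.11, limma adjusted p = 0.00786).

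The other 4 genes of complex III were not called. CYC1, the cytochrome c1 that hands electrons to cytochrome c, had 4853, 3806, 3992 and 3282 in quiescent cells, against 7538, 3571, 6067 and 6329.8 in cycling cells. Cycling sample 2 lay inside the quiescent range, and the difference of -0.52 ± 0.20 missed the threshold (limma adjusted p = 0.073). It was called without cycling sample 2 (-0.75) and without quiescent sample 1 (-0.62). The second core protein, UQCRC2, averaged 9030.1 ± 910.2 in quiescent and 10973 ± 541 in cycling cells (SD, n = 4 each), with groups that did not overlap and a difference of -0.29 (limma adjusted p = 0.0578). UQCRB and UQCR11, small subunits, had differences of -0.27 and -0.18 with overlapping groups. In both, quiescent sample 1 lay well above the other quiescent samples, and without that sample 6 of the 7 genes were called lower. A further UQCRB probe set, marked x_at, averaged 4335 ± 771 in quiescent and 6849 ± 1138 in cycling cells (SD, n = 4 each). It was called lower when each probe set was tested on its own (-0.66, limma adjusted p = 0.00619). The remaining UQCRB probe sets, at -0.38 and -0.35, were not called.

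CYCS, the cytochrome c that carries electrons between complexes III and IV and that triggers apoptosis once released to the cytosol, was lower in quiescent cells by its brightest probe set. Its intensity was 19152, 23503, 18006 and 18955 on the quiescent arrays, against 37227, 32127, 32222 and 34840.3 on the cycling arrays. The groups lay far apart, with means of 19904 ± 2451 in quiescent and 34104 ± 2432 in cycling cells (SD, n = 4 each). The cycling level was 1.72-fold the quiescent level (log2 difference -0.78 ± 0.10, limma adjusted p = 1.39e-04). Its other 2 probe sets above the filter, at 1863 ± 237 and 550.2 ± 113 in quiescent and 1881 ± 140.0 and 454 ± 84.2 in cycling cells, differed by -0.019 and 0.28 and were not called.

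In complex IV, 4 nuclear subunits fell by nearly the same amount. COX6A1, a subunit tied to the regulation of the enzyme, had 4485, 3702, 3484 and 3346 in quiescent cells, against 9647, 6898, 6194 and 7258 in cycling cells (-0.99 ± 0.15, limma adjusted p = 4.48e-04). COX5A, a matrix subunit, had 5299.8, 3249.7, 3739 and 3591 in quiescent cells, against 8782, 6170.5, 7656 and 7518 in cycling cells (-0.94 ± 0.16, limma adjusted p = 0.001). COX6C, a membrane subunit, had 5310.0, 6084, 5394 and 5186 in quiescent cells, against 12042, 9456, 9562 and 10902 in cycling cells (-0.93 ± 0.11, limma adjusted p = 1.11e-04). No quiescent array reached a cycling array in any of these. COX7B averaged 4017 ± 108 in quiescent and 7579 ± 1108 in cycling cells (SD, n = 4 each, -0.91 ± 0.12, limma adjusted p = 2.03e-04).

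Smaller falls were called for 3 further subunits. COX5B, the zinc-binding matrix subunit, averaged 4494 ± 480.0 in quiescent and 5992 ± 586 in cycling cells (SD, n = 4 each, log2 difference -0.42, limma adjusted p = 0.0226). COX8A, a small membrane subunit, had 3511, 2549, 3514 and 3245 in quiescent cells, against 5514, 3267, 4683 and 4824 in cycling cells, and the groups overlapped at cycling sample 2 (-0.50 ± 0.17, limma adjusted p = 0.0418). It was not called without any 1 of quiescent samples 2, 3 and 4 or cycling samples 1, 3 and 4, where differences were -0.39, -0.55, -0.51, -0.40, -0.48 and -0.46. COX7A2 is described below with its paralogue. Without cycling sample 1, complex IV had 4 genes called lower.

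Several subunits of the same enzyme were not called. COX4I1, the isoform of subunit 4 found in most tissues, had 19042, 10789, 14630.5 and 16220.0 in quiescent cells, against 19806, 13871, 17587 and 14990.3 in cycling cells. The ranges overlapped almost wholly, and the difference of -0.14 ± 0.16 was not called (limma adjusted p = 0.546). COX7C had 13899.8, 5545, 8731 and 11069.6 in quiescent cells, against 12816, 8258, 12087 and 9325 in cycling cells, the widest scatter of the brighter subunits (-0.17 ± 0.24). Both turned above 0 without quiescent sample 2, at 0.011 for COX4I1 and 0.078 for COX7C. COX6B1, which faces the intermembrane space, differed by -0.076 ± 0.11. COX4I1 and COX7C were among 7 members represented by a probe set of the type marked x_at, which can also bind other transcripts, and 2 of those 7 were called lower with a median of -0.23. The median was -0.53 for the 18 of the type marked at and -0.48 for the 16 marked s_at. The part of probe set type in these differences was not tested.

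Isoforms of complex IV restricted to muscle, lung or testis were near the bottom of the intensity scale. COX4I2, the isoform known for its rise in low oxygen, had 117, 37.6, 66.5 and 57.5 in quiescent cells, against 30.9, 154, 118 and 68.7 in cycling cells. COX7A1, the heart and muscle isoform, had 15.5, 20.6, 47.5 and 18.1 in quiescent cells, against 56.9, 18.9, 70.1 and 32.4 in cycling cells. Both overlapped and lay under the filter of 83.3. Means of COX6A2, COX6B2 and COX7B2, of muscle and testis, were 46.5 to 94.3 in quiescent and 21.6 to 80.6 in cycling cells. COX8C, of testis, passed the filter narrowly at 106 ± 68.5 in quiescent and 100.05 ± 42.0 in cycling cells (SD, n = 4 each) and was not called.

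COX7A2L, also known as SCAFI, helps join complexes III and IV into supercomplexes and was the 1 gene of complex IV called higher. It had 12803, 11179, 10072 and 9979 in quiescent cells, against 8896, 9173, 8478 and 8143 in cycling cells, without overlap (0.34 ± 0.11, limma adjusted p = 0.0336). Its paralogue COX7A2, a subunit of the enzyme itself, had 8939, 7895, 7059 and 6286 in quiescent cells, against 12114, 10516, 8902 and 10117 in cycling cells. Only quiescent sample 1 and cycling sample 3 overlapped, and COX7A2 was called lower (-0.47 ± 0.13, limma adjusted p = 0.0186). The direction of COX7A2L depends on the scaling, with -0.075 after centring and 0.48 after quantile normalization. It was not called without any 1 of quiescent samples 1 and 2 and cycling samples 1, 3 and 4, where the differences were 0.26, 0.33, 0.35, 0.33 and 0.31. COX7A2 lost its call on leaving out quiescent sample 3 (-0.44), quiescent sample 4 (-0.38) or cycling sample 1 (-0.39).

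The log2 ratio of COX7A2L over COX7A2 on the same array, which no array scaling by a constant can move, was 0.55 ± 0.078 in quiescent and -0.26 ± 0.16 in cycling arrays (SD, n = 4 each). The ranges did not overlap, and the means differed by 0.81. This ratio and those of the subunit c genes were chosen after the values were seen, so they are given as a description with no test.

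Complex V had the widest range. Subunit c, the proton-carrying protein of its ring, is made from 3 genes that encode the same mature protein with different import sequences. ATP5MC1 had 724, 424, 476 and 580.4 in quiescent cells, against 1601, 1174, 1716 and 2027 in cycling cells. It fell the most of all members, with a cycling level 2.96-fold the quiescent level and no overlap (-1.57 ± 0.20, limma adjusted p = 1.72e-04). ATP5MC3 had 2316, 1549, 1507 and 1507 in quiescent cells, against 4448, 2424, 3092 and 3087 in cycling cells, also without overlap (-0.91 ± 0.19, limma adjusted p = 0.00385). ATP5MC2 had 3433, 2803, 3105 and 2917 in quiescent cells, against 3243, 2908, 2632 and 2855 in cycling cells, with overlapping groups (0.075 ± 0.12, limma adjusted p = 0.682), and after centring its difference was -0.34.

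**Figure D4:**
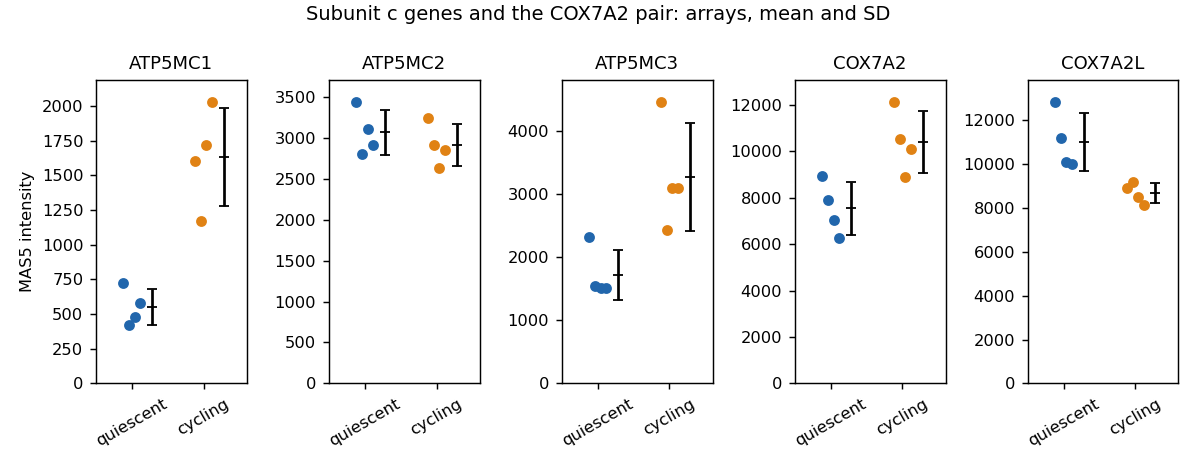
MAS5 intensity (y axis, linear from 0) on each array for the 3 subunit c genes and the COX7A2 pair, quiescent left and cycling right in each panel, with mean and SD beside the points. ATP5MC1 and ATP5MC3 are lower in quiescent cells with no overlap, ATP5MC2 overlaps, COX7A2 is lower and COX7A2L, whose direction turns after centring, is higher.

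Within arrays, the log2 ratio of ATP5MC1 over ATP5MC2 was -2.50 ± 0.25 in quiescent and -0.86 ± 0.37 in cycling cells (SD, n = 4 each). The ratio of ATP5MC3 over ATP5MC2 was -0.85 ± 0.21 in quiescent and 0.13 ± 0.30 in cycling cells. That of ATP5MC1 over ATP5MC3 was -1.65 ± 0.20 in quiescent and -0.99 ± 0.37 in cycling cells. The quiescent and cycling ranges of the ratios to ATP5MC2 did not overlap, and those of ATP5MC1 over ATP5MC3 did. A second, dim probe set of ATP5MC2 had 89.5 ± 21.4 in quiescent and 26.7 ± 18.3 in cycling cells. The pseudogene ATP5MC2P1, a copy of ATP5MC2, was dim at 126 ± 32.9 in quiescent and 131 ± 19.6 in cycling cells (SD, n = 4 each) and was not called.

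The F1 head makes the ATP. ATP5F1A, its alpha subunit, had 9594, 7105, 6862 and 5970.3 in quiescent cells, against 19219, 11927, 14421 and 15189.8 in cycling cells. The cycling level was 2.06-fold the quiescent level, without overlap (-1.04 ± 0.16, limma adjusted p = 5.44e-04). ATP5F1B, the catalytic beta subunit, had 25453, 17656, 22242 and 22822 in quiescent cells, against 34807, 26130.2, 32968 and 32373 in cycling cells, a smaller fall (-0.52 ± 0.12, limma adjusted p = 0.00663). ATP5F1C, the gamma subunit of the turning shaft, was called at the very edge of the threshold (-0.37 ± 0.13, limma adjusted p = 0.0498), with quiescent sample 1 at 12995 above the lowest cycling sample. ATP5F1D and ATP5F1E, the delta and epsilon subunits, differed by -0.43 and -0.13 and were not called.

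The peripheral stalk keeps the head from turning with the ring, and 3 of its 4 genes fell. ATP5PO averaged 5256 ± 727 in quiescent and 8898 ± 1399 in cycling cells (SD, n = 4 each, log2 difference -0.76). ATP5PB averaged 14888 ± 1295 in quiescent and 23583 ± 1975 in cycling cells (-0.66). ATP5PF differed by -0.50, and limma's adjusted p for these genes were 0.00151, 3.65e-04 and 0.0177. ATP5PD differed by -0.15 with overlapping groups and was not called. Of the accessory subunits in the membrane, ATP5MJ (-0.64) and ATP5MK (-0.53) were called lower, and ATP5ME (-0.27) and ATP5MG (-0.15) were not.

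ATP5IF1, the inhibitor that stops the enzyme from running backwards and using up ATP, fell along with the enzyme's subunits. It had 5518, 4157, 5168 and 4722 in quiescent cells, against 8370.4, 6063, 8008 and 6481 in cycling cells, without overlap (-0.56 ± 0.14, limma adjusted p = 0.00907).

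ATP5MF, subunit f of the membrane part, was the 1 member of complex V called higher, and its probe sets disagreed. By the only probe set above the filter that carries its symbol alone, it had 457, 519, 444 and 450.1 in quiescent cells, against 186, 229, 201 and 182 in cycling cells (1.23 ± 0.18, limma adjusted p = 3.99e-04). Another probe set, listed with both ATP5MF and ARMC2-AS1, averaged 5108 ± 651 in quiescent and 7035 ± 1618 in cycling cells (SD, n = 4 each), a log2 difference of -0.44. The higher call therefore rests on a dim probe set, and the brighter one, whose value was added after the data were seen, ran the other way.

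Further probe sets of the members were also compared. Each probe set was tested on its own, and of 20 members with several above the filter, 8 had the same outcome on all of them. Of these, ATP5MJ and COX5A were called lower on all, and ATP5F1D, ATP5ME, ATP5MG, COX4I1, COX7C and UQCR11 were called on none. Another 10 had some probe sets that were not called, and 2, SDHC and ATP5F1C, had calls in opposite directions. Besides those that represent the 41 genes there were 38 probe sets. Of the 21 with a mean intensity of at least 1000, 7 were called lower and 0 higher by limma (0 higher also at an unadjusted p under 0.05), with a median log2 difference of -0.36, against 17.6% lower and 18.8% higher among such probe sets of all genes. Of the 17 dimmer ones, 1 was called lower and 4 higher, with a median of 0.16, against 5.65% lower, 16.0% higher and a median of 0.27 among such probe sets of all genes. The shares and median of the dimmer ones were thus near those of all genes. The 4 called higher were of ATP5F1C (1.10), ATP5PD (1.18), SDHC (0.92) and UQCRC2 (1.06). The limit of 1000 was chosen after the values were seen, and which transcripts the dim probe sets read was not tested.

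Genes that act with the complexes were taken from lists of their known parts and partners, and their counts stand against 15.4% lower and 12.2% higher among all genes. Complex I, the NADH dehydrogenase, had 19 of 33 genes called lower and 0 higher by limma (0 higher also at an unadjusted p under 0.05), with a median log2 difference of -0.55. The 9 tested assembly factors of complex III included 2 called lower, BCS1L (-0.77), which inserts the iron-sulfur protein, and TTC19 (-0.47), a share of 22.2%, not far from that of all genes. Of 3 tested for complex II, 0 were called by limma in either direction, also at an unadjusted p under 0.05. Of 5 tested for complex V, 2 were lower, ATPAF1 (-0.84), a chaperone of the beta subunit, and TMEM70 (-0.45).

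Of 27 genes needed to build complex IV, 12 were called lower, or 44.4%, and 3 higher, no larger a share than among all genes. SLIRP, which stabilises mitochondrial mRNAs, averaged 1284 ± 160.3 in quiescent and 3446 ± 695 in cycling cells (SD, n = 4 each, -1.41). SCO1, which helps load copper, averaged 441 ± 70.2 in quiescent and 1037 ± 194 in cycling cells (-1.23). CMC2 and TACO1 differed by -0.84 and -0.76, and limma's adjusted p for the 4 genes were 6.81e-05, 4.29e-04, 7.49e-04 and 0.00161. The 3 called higher, named after their values were seen, were COX17 (1.33), the copper chaperone that supplies SCO1, COA8 (0.50) and COA1 (0.49). COX17 averaged 596 ± 89.6 in quiescent and 249 ± 93.1 in cycling cells and was the 1 still called higher after centring (0.92), where COA8 and COA1 stood at 0.086 and 0.075. The COX17 probe set was dim, and which transcripts it reads was not tested.

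Factors that supply the complexes or set their genes' level also fell in part. Of 10 genes for heme, cytochrome c and import, 4 were called lower: CHCHD4 (-1.11), which oxidises imported proteins, AFG3L2 (-0.96), HCCS (-0.81), which attaches heme to cytochrome c, and ALAS1 (-0.58), the first enzyme of heme synthesis. Of 12 regulators of respiratory genes tested, 5 were called lower: TFAM (-0.86), TFB2M (-0.77) and TFB1M (-0.44), which serve transcription of mitochondrial DNA or its ribosomes, and ESRRA (-0.59) and PPARGC1B (-0.82). NRF1 (0.28), GABPA (0.095), GABPB1 (-0.17), YY1 (-0.055), MYC (-0.41), POLRMT (-0.56) and PPRC1 (-0.77) were not called, and PPARGC1A lay under the filter.

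Of 7 tested carriers and channels of the mitochondrial membranes, 5 were called lower, among them the phosphate carrier SLC25A3 (-0.38) and the ADP/ATP exchangers SLC25A4 (-0.49) and SLC25A5 (-0.56). Of 10 genes often used as markers of mitochondrial mass, 8 were called lower, with PHB1 (-1.67) and TIMM50 (-1.23) leading. CYCS and VDAC1 are in this list and in others. Of 5 tested genes linked to respiration in low oxygen, HIGD1A (-1.05) and LONP1 (-0.55) were called lower. BNIP3 (0.25), PDK1 (0.27) and HIF1A (0.023) were not called.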

How the data were processed

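RNA of 8 samples, 4 quiescent and 4 cycling by their titles, was measured on arrays. The deposited values are MAS5 intensities, per the submitters' processing notes, which give no version. The values show that the authors had scaled each array to a trimmed mean of 500.1, and array medians ran from 71.9 to 113. Present calls were not used.

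Values below 1 were raised to 1 before log2 was taken, and the authors' scaling was kept, since the array median rests on dim probe sets. Probe sets (41097 with 1 symbol) took their symbols from the array platform's annotation, which may be dated. Of 19775 genes, each by its brightest probe set, 11678 reached the filter, an intensity of 83.3, which is the median over probe sets other than controls. Groups were compared with lmFit and eBayes (trend, robust) of limma 3.58.1 in R 4.3.3, and p-values were adjusted by Benjamini-Hochberg over those genes. The control ratios were compared by two-sided exact permutation over 70 assignments. The test was tried on simulated data. Python 3.11.15 with pandas 2.3.3, scipy 1.17.1 and matplotlib 3.10.9 made the tables and plots. Promoter sequences and symbols come from RefSeq (GRCh38.p14), and 48 of 48 member symbols matched.

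The members and lists were chosen with earlier results of these data known. Values on every array are given for up to 3 called genes of each complex with the largest difference and groups apart, those called higher and 23 listed genes, of which 2 are not analysed here. Of other lists, up to 4 called genes are named, and every regulator. Sample numbers were checked as pairs: deviations of quiescent and cycling samples of one number correlated at 0.34, 0.20, 0.11 and 0.04, which did not pass the limit set for pairing, so the samples were treated as unpaired. Alternatives were other scalings, filters, an offset of 32, other probe set rules, plain eBayes, the replicate block and leaving out each array.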

Additional observations from a re-analysis of the deposited data

Results flagged for a closer look

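In 5 of 84 groups of 4 samples, 1 sample stood far from the others, with a gap to its nearest neighbour that passed the critical value of Dixon's test as a share of the group's range. Chance flags about 1 in 20 such groups. In quiescent cells, sample 1 was the highest for ATP5MC3 (2316, share of the range 0.936), UQCRB (8889.8, 0.883), UQCR11 (3712, 0.863) and ATP5F1C (12995, 0.853). Cycling sample 1 was also the highest cycling array for each of these genes, at 4448, 10192, 3168 and 15201, without passing the critical value. Quiescent sample 3 was the lowest for the pseudogene ATP5MC2P1 (77.5, 0.887). The genes share their arrays, so these are not independent.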

How the results depend on the processing

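The 24 genes called lower became 14 when the mean of all probe sets of a gene was used, where complexes II, IV and V had 1, 4 and 6. Every probe set was also tested on its own, and a gene was counted only where all its probe sets above the filter had the same call. This left 6 in complex V and 1134 lower and 865 higher of all genes. By the representing probe sets alone, that fit called 1790 genes lower and 1424 higher. Centring gave 7 in complex III, 1 member higher, and 3795 lower and 327 higher of all genes. Quantile normalization gave 1 in complex II and 4 in complex IV. Without the trend and robust options of eBayes there were 1 in complex II, 4 in complex IV and 1 higher. Without a filter 1 member was higher, ATP5MF, and COX7A2L lost its call (limma adjusted p = 0.0527). With a filter at 422 the 1 member higher was COX7A2L, since ATP5MF lay under that filter and was not tested. Leaving out 1 array gave 20 to 29 members lower and 1 to 2 higher, 1 to 2 lower in complex II, 3 to 6 in III, 4 to 7 in IV and 10 to 13 in V, and 1419 to 1900 lower and 945 to 1697 higher of all genes, the 945 without quiescent sample 3. With the replicate block, 28 members were lower and 2 higher, with 6 in complex III and 12 in complex V. Among them were ATP5F1D, CYC1, UQCRB and UQCRC2, not called in the main fit (limma adjusted p with the block 0.0113, 0.0122, 0.0276 and 0.0302). Counts over all genes with the block are not given here, so the 28 members cannot be set against a share of all genes. The labels do not say what a shared number means, and 5 of 8 samples correlated best with their own number. The members' mean log2 minus that of all genes tested was highest in sample 1 (2.79 quiescent, 3.31 cycling) and lowest in sample 2 (2.43 and 2.81) in both groups.

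Signs turned in a few places. Centring gave -0.075 for COX7A2L and -0.34 for ATP5MC2. The mean of all probe sets gave 0.27 for SDHD, 0.16 for SDHC, 0.0035 for COX4I1, and 0.040 for the median of complex II minus that of all genes. Leaving out 1 array gave -0.26 to 0.011 for COX4I1 and -0.36 to 0.078 for COX7C, both above 0 only without quiescent sample 2. The causes were not tested. Signal over background limits the dim isoforms of complex IV and the dim probe sets.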

Other observations

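Other probe sets that list a member beside another symbol gave values that belong in no count. The one shared by UQCRH and UQCRHL, of the complex III hinge protein, averaged 16661 ± 3219 in quiescent and 20894 ± 2892 in cycling cells (SD, n = 4 each, log2 difference -0.34). A dim one shared by SDHA and 3 of its pseudogenes averaged 989.6 ± 184 in quiescent and 511 ± 125 in cycling cells. Its log2 difference of 0.97 was opposite in sign to that of the probe set that represents SDHA, which is marked x_at.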
